A study of Homo sapiens with 4 samples.

Results

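The S100 calcium-binding protein family was followed here through 10 of its genes, S100P, S100A4, S100A6, S100A8, S100A9, S100A10, S100A11, S100A13, S100A14 and S100A16. The members were chosen by name, with a probe set naming 1 of them alone, and 10 of 10 were found among the 19775 genes so named on the array. The choice was made knowing that S100P rose in T-47D cells and with the values of the other members in view, so the values below are a description. The data were 4 Affymetrix U133 Plus 2.0 arrays of 2 established breast cancer cell lines. MDA-MB-231 cells, a triple negative line, and T-47D cells, a hormone receptor-positive line of ductal origin, were grown in RPMI1640 medium and given either 100 μM JPH203, an inhibitor of the amino acid transporter LAT1, or Captisol, the control agent, for 24 h. Each condition had 1 array, so no difference has a replicate error, a test or a p-value, and the number of arrays limits the precision.

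S100 proteins are small proteins with a pair of EF-hand calcium-binding loops, and most of them work as dimers. Inside the cell, calcium opens a surface through which they bind annexins, myosins and other targets. Some are also released and act on receptors such as AGER and TLR4. In breast epithelium and breast cancer they are known as markers of cell state, S100P of luminal and secretory cells and S100A4 of motile, mesenchymal-like cells. Most of their genes lie side by side on chromosome 1, and of the 10 members S100P alone lies elsewhere, on chromosome 4.

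The labels of the lines were checked against marker genes. All 12 luminal epithelial markers were at least 2-fold higher on the T-47D control array, and of 10 mesenchymal markers the 7 that reached a signal of 100, the minimum used here, on a control array were all at least 2-fold higher on that of MDA-MB-231. None of 6 myeloid markers reached the minimum on any array, the highest being CSF1R at 36.9 in MDA-MB-231 control cells. These markers were read because neutrophils and monocytes also make S100A8 and S100A9. The source of the S100A8 and S100A9 transcripts was not tested. Between 10831 and 11857 probe sets per array met the minimum, and the trimmed mean of every array was 100.0.

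The stretches before the transcription start of 3 members are shown because these genes had the clearest patterns, S100P and S100A9 meeting the minimum in T-47D cells alone and S100A4 being higher in MDA-MB-231 cells. Each is the 250 bases before the start from RefSeq (GRCh38.p14), written 5′ to 3′ on the strand of the gene, with letters that match a searched motif in capitals.
S100P (chr4:6693628-6693877, plus strand): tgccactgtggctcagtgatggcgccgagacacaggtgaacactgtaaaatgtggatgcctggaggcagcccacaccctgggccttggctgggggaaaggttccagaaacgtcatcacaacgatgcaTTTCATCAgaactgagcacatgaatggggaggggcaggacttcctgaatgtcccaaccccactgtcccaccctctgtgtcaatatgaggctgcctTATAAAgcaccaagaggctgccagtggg
S100A9 (chr1:153357604-153357853, plus strand): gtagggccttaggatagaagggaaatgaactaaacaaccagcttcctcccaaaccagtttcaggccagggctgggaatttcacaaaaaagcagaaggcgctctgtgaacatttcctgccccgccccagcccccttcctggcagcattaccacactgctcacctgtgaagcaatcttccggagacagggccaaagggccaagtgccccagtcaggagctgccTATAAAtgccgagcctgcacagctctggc
S100A4 (chr1:153545807-153546056, minus strand): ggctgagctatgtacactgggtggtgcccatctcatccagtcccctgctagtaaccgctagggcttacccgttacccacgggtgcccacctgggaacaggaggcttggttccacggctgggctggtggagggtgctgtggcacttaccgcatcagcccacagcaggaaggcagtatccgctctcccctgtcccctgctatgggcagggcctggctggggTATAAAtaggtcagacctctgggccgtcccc
All 10 members had an entry, with 15 start sites in all. The letters TATAAA, the TATA box, searched on both strands, were present before 6 of these 15 start sites, those of S100P, S100A4, S100A8, S100A9 and S100A13, and before 10.7% of 35116 start sites of all genes. S100A8 is counted at more than 1 start site, since overlapping stretches share the same match, 29 bases before one start and 126 before another. In S100P, S100A9 and S100A4 the match begins 28, 29 and 31 bases before the start. The letters TGATGNAA, the core of the composite element that C/EBP and ATF proteins bind, were present before 1 of the 15, that of S100P, where the match on the other strand, TTTCATCA, begins 123 bases before the start, and before 3.14% of all start sites. The AP-1 site TGANTCA (6.57% of all start sites), the CRE TGACGTCA (1.65%), the inverted repeat of steroid receptors (0.327%) and the NF-kB site (0.179%) were found before none of the 15. The steroid receptor and NF-kB motifs were each searched as a single pattern, of 13 and 10 letters. Other forms of these sites, among them the estrogen response element, were not searched. With shares of 0.327% and 0.179% of all start sites, nothing is read from their absence before the 15. No motif match overlapped another in the sequences shown. A match describes the letters and not binding, and no binding was measured.

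S100P, a small calcium-binding protein that is also secreted and acts on the receptor AGER, met the minimum in T-47D cells alone. Its signal was 288 on the T-47D control array and 1237 on the T-47D JPH203 array, against 1.1 on the MDA-MB-231 control array and 12.3 on the MDA-MB-231 JPH203 array. Both T-47D arrays lay above both MDA-MB-231 arrays, and the JPH203 array of T-47D cells lay above its control. The ratio of JPH203 over control in T-47D cells was 4.30, and S100P ranked 3 from the top of 6416 genes that met the minimum on both T-47D arrays. In MDA-MB-231 cells both signals were below the minimum and no ratio was read. S100P was measured by 1 probe set, so no second probe set bears on this value.

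**Figure D1:**
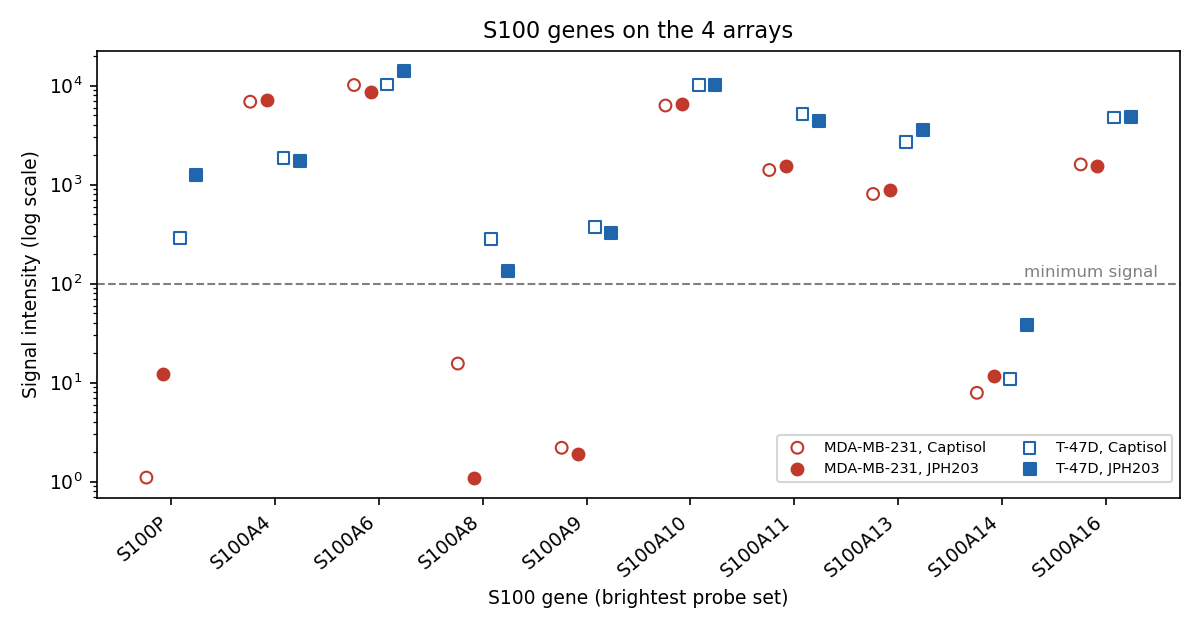
The 10 S100 genes (x axis) with their signal intensity (y axis, log scale), each by its brightest probe set, with open symbols for Captisol, filled symbols for JPH203, red circles for MDA-MB-231 and blue squares for T-47D, 1 point per array. A dashed line marks the minimum signal, 100. S100P, S100A8 and S100A9 are above it in T-47D cells and below it in MDA-MB-231 cells, and S100A14 is below it on all 4 arrays.

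With JPH203 in T-47D cells, 1 member was called higher, S100P, and 1 lower, S100A8. A call needs a ratio reaching 2, or 0.5 in the other direction, and both arrays at the minimum or above. Of the 10 members 9 met the minimum, S100A14 being the exception. Over all 6416 genes that met it, 2.23% were called higher, 2.42% lower and 4.64% either way, and since the members were chosen with this comparison known, nothing is read from the 1 and 1 of 9. The median log2 ratio of the 9 members was 0.011, against -0.053 over all genes that met the minimum on either T-47D array.

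S100A8 and S100A9 encode the subunits of calprotectin, a dimer that binds zinc and manganese as well as calcium. S100A8 had a signal of 280 in T-47D control cells and 134 with JPH203, a ratio of 0.477, and ranked 116 from the bottom of 6416 genes. Its MDA-MB-231 signals of 15.6 and 1.1 did not reach the minimum. The fall in T-47D cells is close to the threshold and rests on 1 _s_at probe set, and it was not called under 8 of the 12 alternatives. After quantile normalization (0.526), after loess (0.530) and with a pseudocount of 16 (0.505) the ratio was nearer to 1. The ratio was as low or lower after scaling to the spike-ins (0.305) and with a minimum of 200 or a 3-fold threshold (0.477). There the signal was below the minimum or the ratio short of the threshold. With the mean of the probe sets (0.419) and without _x_at and _s_at probe sets (0.368) the value draws on the other S100A8 probe set. It was then below the minimum and is not read as a fall. The other S100A8 probe set had signals of 0.3 to 1.9 on the 4 arrays and gives no second value. S100A9, its partner, had 375 in T-47D control cells and 328 with JPH203, a ratio of 0.875, which was not called, and 2.2 and 1.9 in MDA-MB-231 cells. The T-47D ratio of S100A9 was 0.919 after quantile normalization, 0.936 after loess and 0.560 after scaling to the spike-ins. Calprotectin transcripts thus met the minimum on both T-47D arrays and on neither MDA-MB-231 array. The myeloid markers were below it on all 4 arrays, and the source of the calprotectin transcripts was not tested.

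The other 6 members measured in T-47D cells had JPH203 ratios between 0.841 and 1.37, and none was called. S100A6, calcyclin, had 10250.4 in control cells and 14026 with JPH203, a ratio of 1.37 that turned to 0.979 after quantile normalization, 0.972 after loess and 0.876 with the poly-A spike-ins as the scale. S100A13, which takes part in the release of FGF1 and IL1A from cells, had 2683.5 and 3540.1, a ratio of 1.32, which was 0.844 after the spike-in scaling. S100A11, a partner of annexin A1, had 5190.1 and 4363, a ratio of 0.841. It was 0.707 after quantile normalization, 0.670 after loess and 0.538 after the spike-in scaling. By the deposited values, S100A6, S100A13 and S100A11 were the members farthest from 1 after S100P and S100A8. All 3 of these ratios lay inside the range of 0.503 to 1.97 that held 95% of the 6416 genes. S100A10, the light chain of the annexin A2 complex, had 10159 and 10237, a ratio of 1.01. S100A16 had 4762.9 and 4800.4, likewise a ratio of 1.01. Under the same 3 scalings S100A10 was at 0.733, 0.731 and 0.645 and S100A16 at 0.840, 0.802 and 0.645, below 1. S100A4, a partner of nonmuscle myosin, had 1868.6 and 1753, a ratio of 0.938, which was 0.853, 0.842 and 0.601 under these scalings. S100A14, an epithelial member, had 10.9 and 37.8 and stayed below the minimum, so its ratio was not read.

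In MDA-MB-231 cells no member was called with JPH203 in either direction. The 6 members that met the minimum on both arrays were S100A4, S100A6, S100A10, S100A11, S100A13 and S100A16, and 0.0885% of the 6777 genes that did so were called higher, 0.0148% lower and 0.103% either way. Their median log2 ratio was 0.044, against -0.0048 over all genes that met the minimum on either MDA-MB-231 array. S100A6 was the lowest, with signals of 10134 and 8697.6 and a ratio of 0.858. S100A11 was the highest, with 1405.2 and 1542.9 and a ratio of 1.10. S100A13 had 805 and 877.4, a ratio of 1.09, S100A4 had 6876.5 and 7090.7, a ratio of 1.03, S100A10 had 6296.3 and 6489.9, a ratio of 1.03, and S100A16 had 1600.4 and 1547, a ratio of 0.967. All 6 ratios lay inside the range of 0.778 to 1.32 that held 95% of genes in this line.

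**Figure D2:**
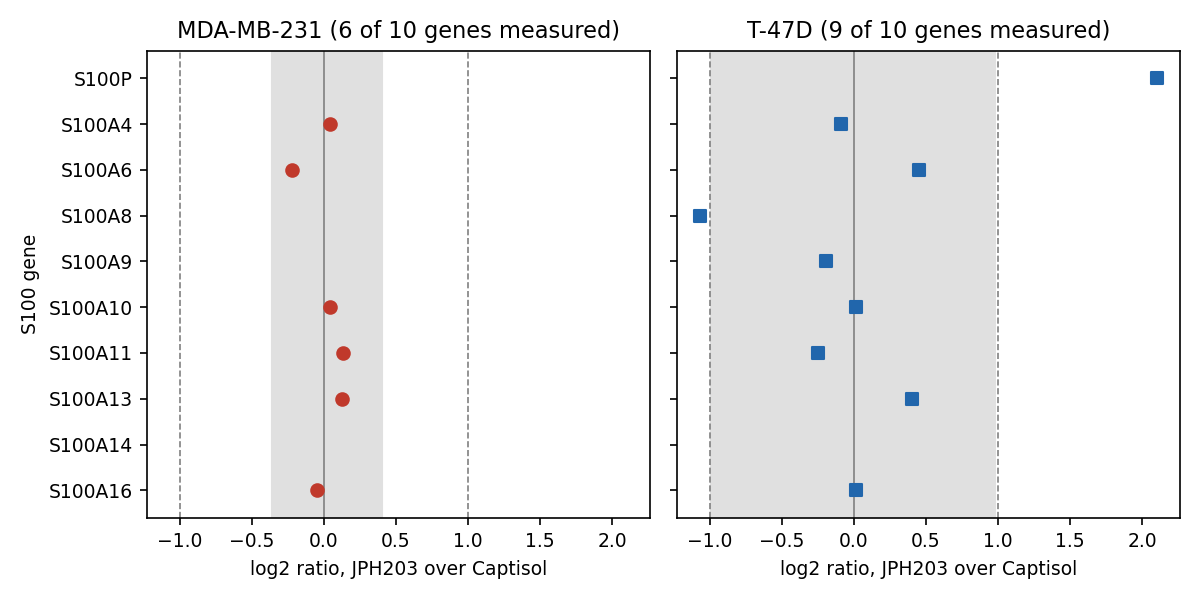
log2 ratio of JPH203 over Captisol (x axis) of each S100 gene (y axis), with MDA-MB-231 on the left in red circles and T-47D on the right in blue squares, 1 array per condition, for genes meeting the minimum of 100 on the 2 arrays of a line. Grey bands hold 95% of all genes measured in the line and dashed lines mark 2-fold; in T-47D cells S100P lies above its band at a ratio of 4.30 and S100A8 just below at 0.477, and in MDA-MB-231 cells all 6 genes lie inside.

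The 6 members measured in MDA-MB-231 cells met the minimum on all 4 arrays and can be set side by side. Their JPH203 ratios lay on opposite sides of 1 in the 2 lines for 4 of them, as did those of 54.5% of the 5265 genes so measured. The SD of their log2 JPH203 ratios was 0.13 in the first line, MDA-MB-231, and 0.28 in the second, T-47D. Over the 5265 genes measured on all 4 arrays it was 0.19 and 0.52. The 6 members leave out S100P and S100A8, the members called in T-47D cells, so these SDs do not cover them. The median size of the log2 ratio of the 6 members between the control arrays was 1.66, against 0.087 with JPH203 in the first line and 0.17 in the second, and over the 5265 genes it was 0.66, 0.11 and 0.35.

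Other measures also differed between the T-47D arrays. As a sign of RNA quality, ACTB had a 3-prime to 5-prime ratio of 1.39 on the control and 1.72 on the JPH203 array, against 1.45 and 1.44 in MDA-MB-231 cells. That of GAPDH went the other way, from 0.940 to 0.867, against 0.987 and 1.01 in MDA-MB-231 cells. For the poly-A spike-ins the ratio of JPH203 over control was 1.56 in T-47D cells and 0.927 in the other line. After scaling to these spike-ins S100P was still called, at a ratio of 2.75. Short genes also had higher ratios in T-47D cells. Of the 10 members 9 span at most 20 kb in RefSeq. The exception is S100A8 at 32.6 kb, and which of its transcripts the probe set reads was not examined. In T-47D cells genes of at most 20 kb had a median log2 ratio of 0.12 with 2.8% called higher and 0.794% lower, against -0.13, 1.83% and 3.56% for longer genes. The part of these measures in the S100 values was not tested. In bulk RNA, fewer cells of a type and less RNA per cell cannot be told apart.

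Between the control arrays, 6 of the 9 members measured were at least 2-fold higher in T-47D cells, 1 was so in MDA-MB-231 cells, and 2 differed by less. The minimum on either control array was enough here. Of 8294 genes that met it, 24.3% were at least 2-fold higher in T-47D cells, 23.5% in the other line and 47.8% in either. The median log2 ratio of MDA-MB-231 over T-47D was -1.74 for the members and 0.0011 for all genes. S100P, S100A8 and S100A9 enter through the T-47D array alone. Among the 6 members that met the minimum on both control arrays, 3 were higher by 2-fold or more in T-47D cells and 1 in the other line, against 16.1% and 16.3% of 5688 genes, and the median was -1.13, against 0.021 for all genes. The 6 of 9 in T-47D cells were S100P, S100A8, S100A9, S100A11, S100A13 and S100A16, and the 1 in MDA-MB-231 cells was S100A4. This count depends on the scaling. The poly-A spike-ins of the T-47D control array were 3.25 times those of the MDA-MB-231 control array. After scaling to them 3 members were higher in T-47D cells, S100P, S100A8 and S100A9, and 3 in MDA-MB-231 cells, S100A4, S100A6 and S100A10. Of the 8989 genes that then met the minimum on either control array, 449 were at least 2-fold higher in T-47D cells and 6724 in MDA-MB-231 cells.

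S100A4, known for its part in cell motility and metastasis, had 6876.5 on the MDA-MB-231 control array and 1868.6 on the T-47D control array, a ratio of 3.68. The JPH203 arrays, which give a second pair of arrays although under treatment, had 7090.7 and 1753, a ratio of 4.04. Both MDA-MB-231 arrays lay above both T-47D arrays, and on the JPH203 arrays 27.9% of 8239 genes passed 2-fold on the side of MDA-MB-231 and 25.6% on that of T-47D. Its value rests on 1 _s_at probe set.

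S100A11 was 3.69 times as high in T-47D as in MDA-MB-231 cells on the control arrays and 2.83 times on the JPH203 arrays. S100A13 was 3.33 and 4.03 times as high in T-47D cells, and S100A16 2.98 and 3.10 times. For these 3 genes both T-47D arrays lay above both MDA-MB-231 arrays. S100P, S100A8 and S100A9 were below the minimum in MDA-MB-231 cells, so the size of their difference was not read from those signals. With the MDA-MB-231 signal set to the minimum of 100, the T-47D control signal was at least 2.88-fold higher for S100P, 2.80-fold for S100A8 and 3.75-fold for S100A9. On the JPH203 arrays these bounds were 12.4, 1.34 and 3.28, that of S100A8 being under 2-fold. The S100A8 bounds rest on 1 _s_at probe set. S100A10 was 1.61 and 1.58 times as high in T-47D cells. S100A6 was nearly level on the control arrays, at 1.01 times, and 1.61 times as high in T-47D cells on the JPH203 arrays.

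Along chromosome 1 the difference between the lines changed sides within the row of S100 genes. In the gene order of RefSeq (GRCh38.p14), S100A10 and S100A11 come first, 47 other protein-coding genes follow, and then S100A9, S100A12, S100A8, S100A7A, S100A7, S100A6, S100A5, S100A4, S100A3, S100A2, S100A16, S100A14, S100A13 and S100A1 stand in a row with no other protein-coding gene between them. S100A4 and S100A2 were higher in MDA-MB-231 cells, S100A6 at one side of them was level on the control arrays, and S100A16 and S100A13 at the other side were higher in T-47D cells. This pattern depends on the scaling. With the poly-A spike-ins as the scale, the control ratio of MDA-MB-231 over T-47D was 3.22 for S100A6, 1.09 for S100A16 and 0.976 for S100A13. After quantile normalization and loess it was 1.29 and 1.31 for S100A6, while S100A16 and S100A13 stayed more than 2-fold higher in T-47D cells. S100A2, a family member outside the 10 that basal epithelial cells make, had signals of 1034.3 and 1134.6 in MDA-MB-231 control and JPH203 cells, and 42.1 and 88.6 on the T-47D arrays. With the T-47D signal set to the minimum, that of MDA-MB-231 was at least 10.3-fold higher on the control arrays and 11.3-fold on the JPH203 arrays. S100A3 and S100A5, which flank S100A4, were below the minimum on all 4 arrays, at 38.6 and 64.9 for S100A3 and 7.8 and 7.3 for S100A5 on the MDA-MB-231 arrays and at 4.4 or less on the T-47D arrays. Of the 10 other S100 genes on the array, S100A2 was the single one that met the minimum on any array.

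**Figure D3:**
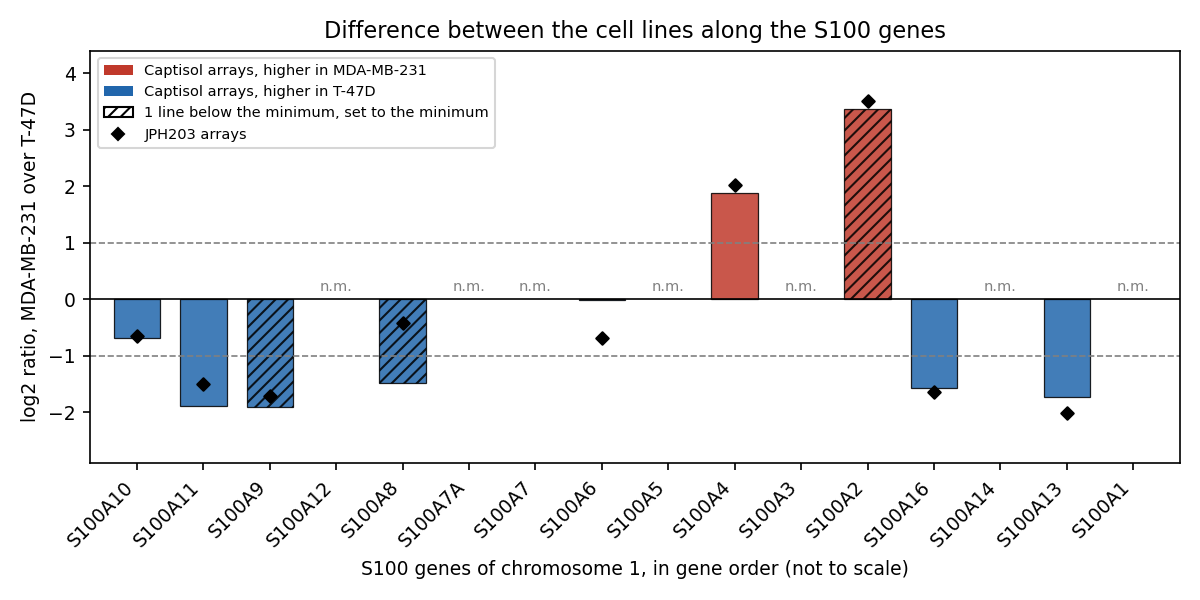
log2 ratio of MDA-MB-231 over T-47D (y axis) for the 16 S100 genes of chromosome 1 in gene order, not to scale (x axis), with bars for the Captisol arrays and diamonds for the JPH203 arrays, each from 1 array per condition. Signals below 100 were set to 100 where 1 line was below it (hatched bars, which are lower bounds), n.m. marks genes below 100 on both arrays, and dashed lines mark 2-fold; S100A4 and S100A2 point up and the measured genes before S100A6 and after S100A2 point down.

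The receptors and binding partners of S100 proteins were read from a list of 21 genes, 20 of which had a probe set naming them alone. In T-47D cells 2 of the 15 measured were called lower with JPH203 and 0 higher, against 2.42% and 2.23% of all genes, and the median log2 ratio was -0.42, against -0.053 over all genes. MYH10, a nonmuscle myosin heavy chain, fell from 576 to 245.8, a ratio of 0.427. AHNAK, a giant scaffold protein that binds the complex of S100A10 and annexin A2, fell from 1966.4 to 880.9, a ratio of 0.448. Each was read from its brightest probe set, 1 of 2 for MYH10 and 1 of 5 for AHNAK. Their other probe sets were not read, and the scaling was not varied for these genes. MYH9, the myosin heavy chain to which S100A4 binds, had 262 and 138, a ratio of 0.528, which was not called. Of the 15 measured, 5 had a ratio above 1. The highest was that of SIAH1, with 161.9 and 275.7, a ratio of 1.70 that was not called. MYH10, AHNAK and MYH9 span 156.5, 113.3 and 106.7 kb, and longer genes had lower ratios in T-47D cells, as given above. In MDA-MB-231 cells 0 of the 16 measured were called, against 0.103% of all genes, with a median of -0.031 and ratios of 0.813 to 1.15.

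The partners of the members measured in both lines did not follow their S100 gene in every case. ANXA2, the annexin partner of S100A10, had signals of 7311.9 and 6712.4 without and with JPH203 in MDA-MB-231, against 7918.7 and 9380.8 for T-47D, and was not called in any comparison. ANXA1, the annexin partner of S100A11, had 3062.6 and 2848.8 in the first line against 60.4 and 56.1 in the second, on the side opposite to S100A11. Among the 16 receptors and partners measured between the control arrays, the calls were ANXA1, ALCAM and MYH10 toward MDA-MB-231 and ANXA6 toward T-47D. ANXA6, another annexin, read 559.6 against 2854.4, on the same side as S100A11. ALCAM read 1806.4 against 610.4 and MYH10 1345.2 against 576. CACYBP, to which S100A6 binds, had 2246.5 and 1825.3 in the first line, 1610.7 and 1632.6 in the second. EZR, ezrin, a target of S100P in the cell, had 1148.8 in T-47D control cells and 755.7 with JPH203, a ratio of 0.658, and IQGAP1, another S100P target, 600.7 and 338.6, a ratio of 0.564, neither of which was called. AGER, the receptor of S100P and calprotectin, was at 35.8 or less and TLR4 at 86.7 or less on all 4 arrays, below the minimum. FGF1 and IL1A, the cargo of S100A13, were at 33.7 and 46.8 or less.

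As a wider group, 21 of 24 other EF-hand proteins had a probe set naming them alone. With JPH203, 0 of 17 measured in T-47D cells were called, against 4.64% of all genes, with ratios of 0.613 to 1.87 and a median log2 ratio, over the 18 that met the minimum on either array, of -0.20. In MDA-MB-231 cells 0 of 16 were called, against 0.103% of all genes, with ratios of 0.936 to 1.26.

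**Figure D4:**
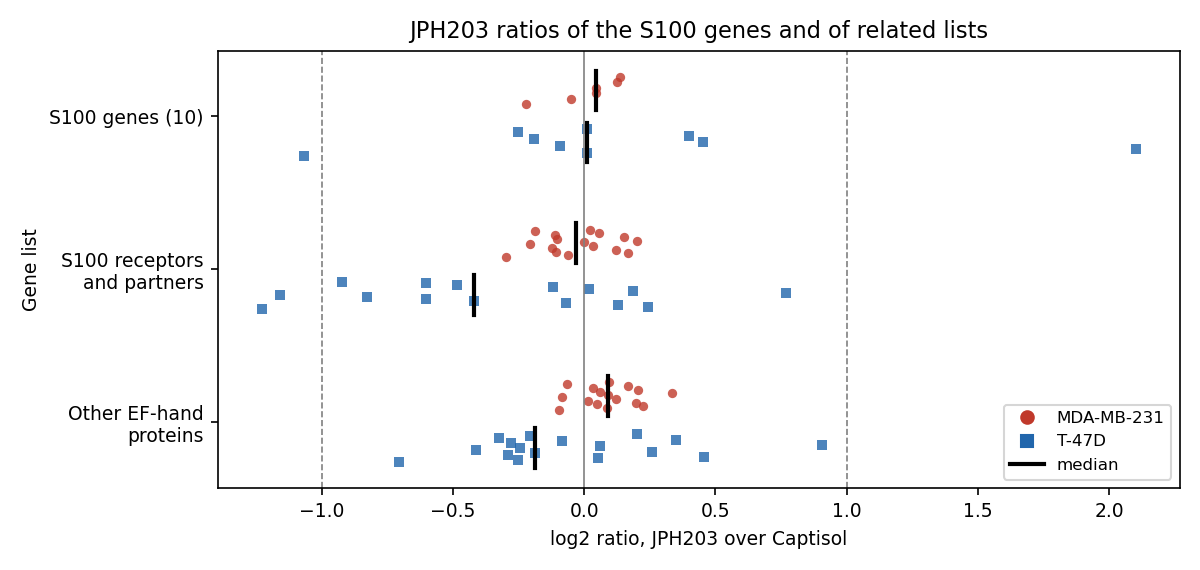
log2 ratio of JPH203 over Captisol (x axis) of the S100 genes, of S100 receptors and partners and of other EF-hand proteins (y axis), with MDA-MB-231 in red circles and T-47D in blue squares, for genes meeting the minimum of 100 on the 2 arrays of a line. Each point is 1 gene, black bars are medians of the points, vertical offsets separate points, and dashed lines mark 2-fold; the points beyond 2-fold are S100P at 4.30 and S100A8, MYH10 and AHNAK at 0.477, 0.427 and 0.448, all in T-47D cells.

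The genes whose pattern over the 4 arrays was most like that of S100P were found by the distance between log2 profiles, each centred on its own mean, with signals below 100 set to 100. Of 8573 genes, the nearest 5 were COMMD2 at a distance of 0.34, ETFRF1 at 0.50, KLHDC9 at 0.63, SAT1, which acetylates spermidine and spermine, at 0.70 and OTUD6B-AS1 at 0.74. COMMD2 had signals of 438.5 and 1408.7 in T-47D control and JPH203 cells and 151 and 137 in MDA-MB-231 cells. The ratios of the 5 in T-47D cells were 2.18 to 3.21, below that of S100P. With 4 arrays this likeness is a description and says nothing of shared control.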

How the data were processed

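RNA of 4 samples was measured, 1 array for each line and treatment. The authors deposited linear signal intensity values for 54675 probe sets. GCOS is named in the submitters' notes on processing. Its version is not given in the sources used here. The trimmed mean of every array (without its lowest and highest 2%) was 100.0. No detection calls were used.

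Samples were grouped by their titles. By the annotation of the platform 41097 probe sets name 1 gene, 1801 name several and 11777 are not listed there. Gene identifiers of 41043 matched RefSeq (GRCh38.p14), used for names, order, length and start sequences, since the series names no build. A gene was read from its brightest probe set by mean signal over the 4 arrays. A call was a ratio reaching 2, or 0.5 in the other direction, and a signal reaching 100 on both arrays, or on 1 between the lines. The paper gives the 2-fold threshold but no minimum. With 1 array per group, no test was made.

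The text names all 10 members, other S100 genes of at least 100 on an array, called genes and partners of members from fixed lists, and the 5 genes nearest to S100P. EF-hand genes in the closing section were the called ones with the widest ratios, and S100A3, S100A5, S100PBP, SIAH1 and CSF1R were named after their values were seen, as were the 20 kb length limit and the comparison on JPH203 arrays. Members and lists were chosen with earlier results of these data known. Scaling, minimum signal, threshold, pseudocount and probe set choice were varied. The rule for the calls was tried on simulated data with known changes. This checks the arithmetic of the rule and not the calls on these arrays, from which the simulation differed in spread and signal range. Python 3.11.15 was used with numpy 2.4.6, pandas 2.3.3, statsmodels 0.14.6 and matplotlib 3.10.9.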

Additional observations from a re-analysis of the deposited data

Results flagged for a closer look

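With 1 array per condition, the JPH203 ratio lay above 1 in one line and below 1 in the other for 4 members and for 54.5% of the 5265 genes measured on all 4 arrays. The difference was not tested. The log2 ratio of MDA-MB-231 less that of T-47D was -0.67 for S100A6 (-0.22 and 0.45), 0.39 for S100A11 (0.13 and -0.25), 0.14 for S100A4 (0.044 and -0.092) and -0.060 for S100A16 (-0.049 and 0.011). For 2 of the 4 the T-47D side depends on the scaling. The T-47D ratio of S100A6 was 0.979, 0.972 and 0.876 after quantile normalization, loess and scaling to the poly-A spike-ins, and then on the same side of 1 as in MDA-MB-231 (0.891, 0.902 and 0.926). That of S100A16 was 0.840, 0.802 and 0.645, against 0.980, 0.991 and 1.04. None of these 4 genes was called in either line.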

How the results depend on the processing

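S100P was called higher in T-47D cells under all 12 alternatives, with ratios of 2.75 to 4.44. The 1 call of a lower member there, S100A8, became 0 after quantile normalization, loess or scaling to the poly-A spike-ins, with a pseudocount of 16, a minimum of 200 or a 3-fold threshold, with the mean of the probe sets, and without _x_at and _s_at probe sets. Its ratio, 0.477, was 0.505 to 0.530 under quantile, loess and the pseudocount and 0.305 to 0.477 under the rest. Of these, the mean of the probe sets and the choice without _x_at and _s_at draw on a probe set far below the minimum. Without a minimum signal, 2 members were higher in T-47D cells and 1 higher and 1 lower in MDA-MB-231 cells, the added ones from signals under 40. Of all 19775 genes, 3165 were then higher and 2467 lower in T-47D cells, and 2446 and 2287 in MDA-MB-231 cells. Nothing is read from the member counts under this setting. The median log2 ratio of the members in T-47D cells, 0.011, was -0.23 after quantile normalization, -0.25 after loess and -0.63 after scaling to the spike-ins, and that in MDA-MB-231 cells was then 0.15. Between the control arrays, the spike-in scaling gave 3 members higher in each line, a median of -0.036 and a ratio of 1.09 for S100A16, on the other side of 1, while it moved the median of all genes from 0.0011 to 1.83. The mean of the probe sets gave a median of -1.56, and without _x_at and _s_at probe sets 0 members were higher in MDA-MB-231 cells, as S100A4 then has none. Under each of these 2 settings 5 members were higher in T-47D cells, S100A8 being below the minimum. Over all genes 1334 of 5359 and 1390 of 5626 were then higher in T-47D cells. Over all genes in T-47D cells, 143 were higher and 155 lower, 174 and 113 after loess, and 16 and 773 after scaling to the spike-ins, which shifts the median of all genes from -0.053 to -0.70. The cause of these changes was not tested. No paired analysis was possible because the labels give no replicate numbers and each group holds 1 array. Pairing within a line would take the 2 lines as replicates of each other. For the same reason no array could be left out.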

Other observations

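Of 18 other EF-hand proteins measured in control cells, 6 were higher by 2-fold or more in MDA-MB-231 and another 6 in T-47D, against 23.5% and 24.3% of 8294 genes. EFHD1, a mitochondrial EF-hand protein, had signals of 139 for MDA-MB-231 and 3284 for T-47D control cells, a ratio of 0.042. PDCD6, a calcium sensor of vesicle traffic also known as ALG-2, had 705 and 2171.9, a ratio of 0.325. MCFD2, a cargo receptor subunit of the secretory pathway, had 2387.4 and 395, a ratio of 6.04, and EFHD2, an actin-binding relative of EFHD1, had 380.7 and 107.6, a ratio of 3.54.

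S100PBP, which encodes a protein that binds S100P, had signals of 101 and 114 in T-47D control and JPH203 cells, a ratio of 1.13, and of 191 and 212 in MDA-MB-231 cells, a ratio of 1.11, on its brightest probe set. Its other probe set lay on the opposite side of 1, at 0.803 for T-47D (108.5 and 87.1) and 0.734 for MDA-MB-231 (94.9 and 69.7). Of these signals 108.5 alone met the minimum of 100. No direction was read for S100PBP.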
